A study of Mus musculus with 8 samples.

Results

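Transcripts of 10 genes that write, copy or remove chromatin silencing marks were compared between regulatory T cells (Treg) of the bone marrow and of the spleen. The genes were chosen by symbol and not by a rule on measured values, but earlier results of these data were known. The set holds Ezh2, Eed and Suz12, the core of Polycomb repressive complex 2 (PRC2). With them are the DNA methyltransferases Dnmt1, Dnmt3a and Dnmt3b with Uhrf1, and Tet1, Tet2 and Tet3. The set makes 10 of the 38215 genes listed by symbol and Ensembl identifier in the deposited tables, and each symbol was found. FoxP3+ cells had been sorted from the bone marrow (BM-Treg, 4 libraries) and the spleen (SP-Treg, 4 libraries) of naïve C57Bl/6 mice aged 12 weeks that carry the FoxP3-GFP reporter, by which a cell expressing FoxP3 is seen as green. No treatment or deletion was applied in either group. By the labels, batch 1 holds BM-Treg replicates 1 to 3, called female, and batch 3 holds the SP-Treg libraries together with BM-Treg replicate 4, called male. Batch and labelled sex coincide in all 8 libraries and cannot be told apart, and BM-Treg replicate 4 alone separates tissue from the pair of them. No label states whether a library came from 1 mouse or from pooled mice. The spleen titles end in codes with a pair of numbers, which could be read as overlapping ranges but are not explained. Whether spleen libraries share mice is thus unknown, and p-values measure the spread between these libraries.

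PRC2 attaches methyl groups to lysine 27 of histone H3, a mark of silenced genes: EZH2 is its catalytic subunit, EED binds the finished mark, and SUZ12 holds the complex together. DNA methylation is placed on CpG sites by DNMT3A and DNMT3B and copied onto the daughter strand by DNMT1, which UHRF1 brings to newly replicated DNA. TET enzymes oxidise methylcytosine, the first step of its removal. In Treg these systems are known for the unmethylated state of the conserved FoxP3 enhancer that stabilises the lineage, which TET proteins bring about, and for EZH2, which acts with FOXP3 at genes that activated Treg silence.

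Expected counts (reads assigned to a gene by estimation) summed to between 12427136 and 21921252 in BM-Treg and to between 12924964 and 14121975 in SP-Treg. Levels are given as CPM, the counts scaled to library size, between libraries and as FPKM, which also divides by transcript length, between genes. The 8 Treg markers examined, Foxp3 and Cd4 among them, summed to 7496 to 9076 CPM in BM-Treg and to 8250 to 9009 CPM in the spleen libraries. RNA of other cells was low in most libraries but not in all: the erythroid genes found (7 of 9 listed) summed to 6.71 to 11.04 CPM in BM-Treg and to 1.37, 67.5, 153 and 90.7 CPM in SP-Treg replicates 1 to 4, and the 6 B cell genes to 137 CPM in SP-Treg replicate 2 against 13.1 to 29.3 CPM in the other 7 libraries. The sums of 9 neutrophil genes (0.217 to 19.8 CPM), 5 B cell progenitor genes (1.03 to 12.7 CPM, with Igll1 at 0) and 5 haematopoietic progenitor genes (1.52 to 3.87 CPM) were small, and 5 plasmacytoid dendritic cell genes summed to 48.2 to 58.0 CPM in BM-Treg and to 26.0 to 62.3 CPM in the spleen libraries. Of the plasmacytoid dendritic cell genes, Ccr9 was at 29.1 to 39.8 CPM in BM-Treg and at 8.82 to 41.3 CPM in SP-Treg. Siglech and Klk1 were at 0.812 CPM or less and 0.158 CPM or less in every library. The sex labels were met in part. Xist was at 1215, 2280 and 2333 CPM in BM-Treg replicates 1 to 3 and at 1.52 to 2.61 CPM in the other 5 libraries. Kdm5d, on the Y chromosome, was at 46.3 and 21.1 CPM in BM-Treg replicates 1 and 2, labelled female, against 0.629 CPM in replicate 3 and 81.0 to 89.8 CPM in the libraries labelled male. Those 2 libraries thus held both Xist and Y-linked RNA.

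All 10 genes passed the filter on low counts, and 1 of them, Ezh2, was called (edgeR's quasi-likelihood test, adjusted p under 0.05). It was lower in BM-Treg. Over all 13397 genes tested 8.75% were called, 5.02% lower and 3.72% higher in BM-Treg, so the count among the 10 was near the background. In sign alone 7 were lower and 3 higher in BM-Treg, with a median log2 fold change of -0.11, and 51.4% of all genes tested were lower. The libraries of the groups did not overlap for 2 of the 10 genes, Ezh2 and Eed, both with BM-Treg below, against 7.67% of all genes tested in that direction, 8.26% in the other and 15.9% in either. In sorted bulk samples, fewer cells that express a gene and less of its RNA per cell cannot be told apart.

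**Figure D1:**
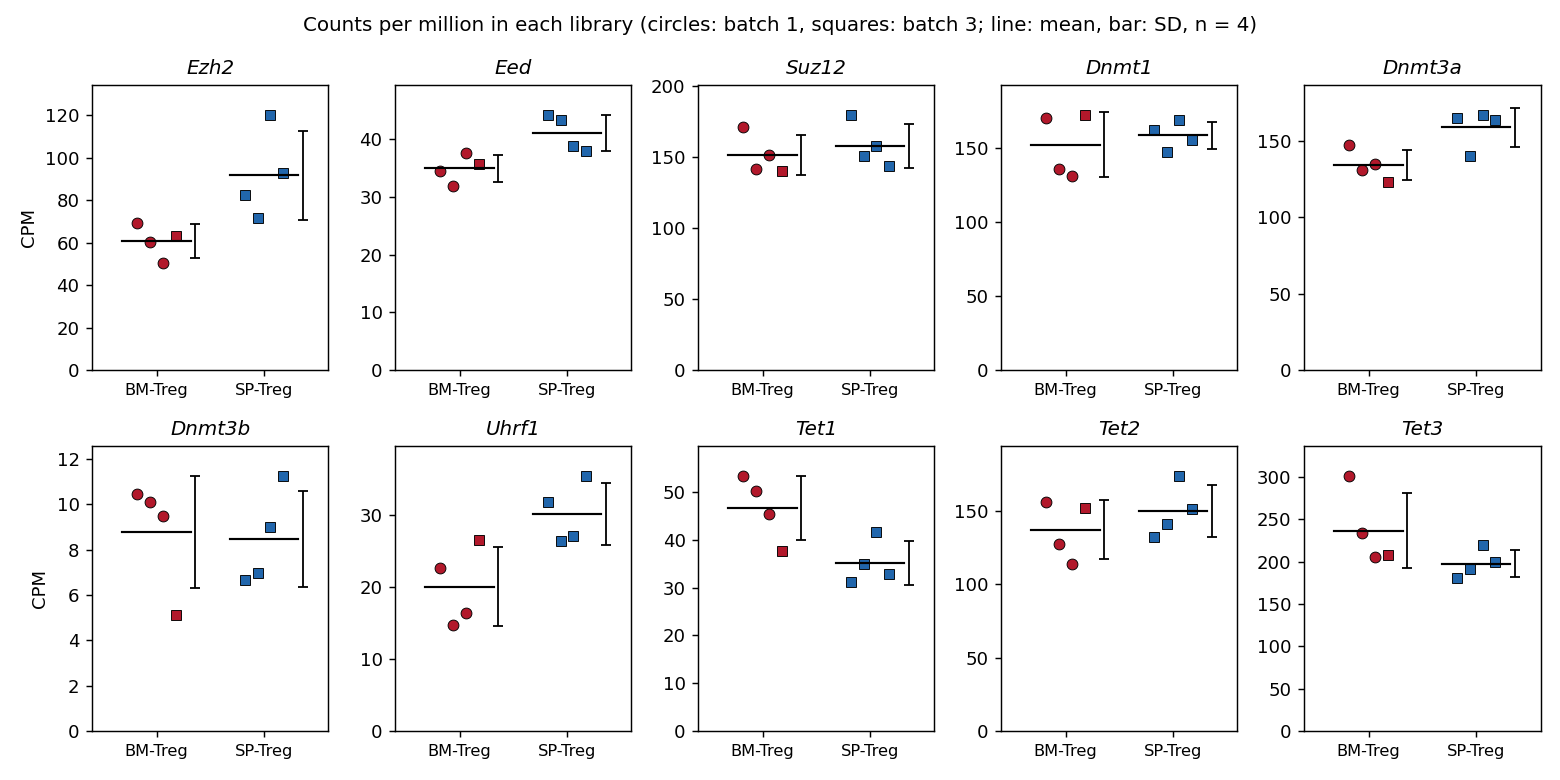
CPM of the 10 genes in each of the 8 libraries, with a panel for each gene and the axis from 0; horizontal lines are means and bars are the SD of 4 libraries. Ezh2 and Eed are the genes whose BM-Treg libraries all lie below the SP-Treg libraries, and for Uhrf1, Tet1 and Dnmt3b the square of BM-Treg replicate 4 lies apart from the circles or toward the spleen.

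Of the PRC2 core, Ezh2 was at 69.3, 60.5, 50.5 and 63.0 CPM in BM-Treg replicates 1 to 4 and at 82.3, 71.4, 119.8 and 92.9 CPM in SP-Treg replicates 1 to 4. The highest BM-Treg library (69.3) and the lowest SP-Treg library (71.4) nearly met, and the spleen libraries spread more widely. The log2 fold change was -0.61 ± 0.16 (SE, n = 4 and 4; edgeR adjusted p = 0.0264). The study had named Ezh2 from these libraries, so its call is not independent evidence. With batch 3 alone the difference was -0.54 in a fit that assumes BM-Treg replicate 4 to vary like SP-Treg (edgeR adjusted p = 0.362), and with batch as a term it was -0.56 (edgeR adjusted p = 0.296): the size was kept and the call was not. On log2(FPKM + 1) the difference was -0.61 and was not called either (limma adjusted p = 0.154), and in FPKM BM-Treg replicate 1 (58.8) lay above SP-Treg replicates 2 and 4 (56.3 and 57.9). The call was lost in the fits without BM-Treg replicate 2, 3 or 4 or without SP-Treg replicate 3 or 4, with edgeR adjusted p between 0.0578 (without BM-Treg replicate 4) and 0.0771 (without BM-Treg replicate 3). SP-Treg replicates 2 to 4, the libraries with the most erythroid RNA, included the highest and the lowest spleen value of Ezh2. The part of erythroid RNA in the difference was not tested.

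The promoter of Ezh2 is shown because it carries a motif of the E2F type, a class of sites in genes of DNA replication. The motif was searched as TTTCCCGC, TTTCGCGC, TTTGCCGC or TTTGGCGC on both strands, in RefSeq windows from 250 bases before to 50 after each start site (GRCm38.p6). It is in 2.26% of all 32851 windows and in at least 1 window of 2.6% of all 27025 genes, and of 4 of the 10 genes: Ezh2, Suz12, Dnmt1 and Uhrf1. All 10 genes had a window, 15 in all. A match describes letters and shows no binding. In Ezh2 (chr6:47595011-47595260, minus strand, written in the direction of transcription) the match, in capitals, begins at base 4 after the start.
Ezh2 promoter: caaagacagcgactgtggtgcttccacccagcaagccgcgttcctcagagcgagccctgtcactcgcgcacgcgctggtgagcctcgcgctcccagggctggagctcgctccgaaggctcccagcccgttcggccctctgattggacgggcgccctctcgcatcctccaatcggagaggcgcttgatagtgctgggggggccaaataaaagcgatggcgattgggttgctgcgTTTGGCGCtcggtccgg

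Eed was at 34.5, 31.9, 37.5 and 35.6 CPM in BM-Treg and at 44.0, 43.3, 38.7 and 37.9 CPM in SP-Treg. Every BM-Treg library lay below every SP-Treg library, by a margin of under 1 CPM at the closest pair (37.5 against 37.9). The log2 fold change of -0.25 ± 0.11 (SE, n = 4 and 4) was not called (edgeR adjusted p = 0.177). In FPKM the groups overlapped, at 20.1 to 26.5 in BM-Treg and 21.2 to 27.6 in SP-Treg, and the difference on log2(FPKM + 1) was -0.08 (limma adjusted p = 0.785). Suz12 was at 171, 142, 152 and 140.2 CPM in BM-Treg and at 179, 151, 157 and 144 CPM in SP-Treg, with overlap and a log2 fold change of -0.08 ± 0.10 (SE, n = 4 and 4; edgeR adjusted p = 0.698). Of the 3 subunits Ezh2 had the largest measured difference, and whether the subunits differed from each other was not tested. Its paralogue Ezh1, which can take its place in PRC2, had 92.7 ± 6.94 CPM in BM-Treg against 85.5 ± 12.9 CPM in the spleen (SD, n = 4; log2 fold change 0.10, edgeR adjusted p = 0.656). The log2 ratio of Ezh2 to Ezh1 counts within a library was -0.61 ± 0.26 in BM-Treg and 0.08 ± 0.52 in SP-Treg (SD, n = 4), with overlap (difference -0.70, exact two-sided permutation p = 0.0857, 0.114 adjusted over 4 ratios). With 4 libraries against 4, the smallest p this test can give is 0.0286.

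The 2 main forms of the Suz12 transcript separated the groups in these libraries, though not after adjustment. Suz12-201, the longer coding transcript, took 70.9%, 66.3%, 85.1% and 82.4% of the gene's counts in BM-Treg and 57.6%, 52.6%, 63.8% and 62.9% in SP-Treg. The means were 76.2% ± 9.02 and 59.2% ± 5.22 (SD, n = 4), with no overlap between the groups (exact two-sided permutation p = 0.0286, the smallest possible). Adjusted over the 9 genes with more than 1 transcript, p was 0.256. BM-Treg replicate 4, of the same batch as the spleen libraries, was at 82.4%. Suz12-206 made up most of the rest, at 21.7% ± 8.86 in BM-Treg and 38.4% ± 5.68 in SP-Treg (SD, n = 4). It lacks exon 4 of Suz12-201 (chr11:79999057-79999125, GRCm38, plus strand), a coding exon of 69 bases, or 23 codons, whose loss keeps the reading frame (coding lengths of 2223 and 2154 bases). RSEM divides reads among overlapping transcripts by estimation, so that such shares are uncertain. Exon 4 is given in capitals, with 20 bases of the exons on either side in lower case, from the GENCODE M21 transcript.
Suz12 exon 4: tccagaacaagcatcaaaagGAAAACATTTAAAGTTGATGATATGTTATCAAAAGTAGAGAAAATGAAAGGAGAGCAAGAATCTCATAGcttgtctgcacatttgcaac

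Ezh2 itself was spread over 12 annotated transcripts. Its leading form, Ezh2-201, took 39.4% ± 7.71 of counts in BM-Treg and 33.7% ± 11.4 in SP-Treg (SD, n = 4; exact two-sided permutation p = 0.371). A short transcript annotated as subject to nonsense-mediated decay, Ezh2-209 (666 bases), took 19.04% ± 2.29 and 21.8% ± 6.48 (SD, n = 4). Eed was carried mainly by Eed-201 (92.5% ± 2.58 and 94.5% ± 3.52; SD, n = 4).

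Of the 3 DNA methyltransferases and Uhrf1, 0 were called by edgeR, 2 (Dnmt3a and Uhrf1) had an unadjusted p under 0.05, and Uhrf1 passed by DESeq2 (adjusted p = 0.0230) and by limma-voom with an adjusted p of 0.0352. Dnmt1, the maintenance methyltransferase, was at 170.5, 136, 131 and 172 CPM in BM-Treg and at 162, 147, 169 and 155 CPM in SP-Treg. BM-Treg replicates 1 and 4 were above all 4 spleen libraries and replicates 2 and 3 below all of them, and the log2 fold change was -0.07 ± 0.11 (SE, n = 4 and 4; edgeR adjusted p = 0.746). Dnmt3a, the main de novo enzyme of mature T cells, was at 147, 131, 135 and 123 CPM in BM-Treg and at 165, 139.9, 167 and 164 CPM in SP-Treg. One spleen library, replicate 2, lay within the BM-Treg range. The log2 fold change was -0.26 ± 0.10 (SE, n = 4 and 4; edgeR adjusted p = 0.123), and -0.38 with the batch term (edgeR adjusted p = 0.230), a value that BM-Treg replicate 4 carries alone. Dnmt3b, the other de novo enzyme, was low, at 10.4, 10.1, 9.49 and 5.12 CPM in BM-Treg and at 6.65, 6.95, 9.01 and 11.2 CPM in SP-Treg. Its log2 fold change was 0.04 ± 0.25 (SE, n = 4 and 4; edgeR adjusted p = 0.938), and turned to -0.74 with the batch term (edgeR adjusted p = 0.274), with BM-Treg replicate 4 the lowest library of the 8.

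Uhrf1 was at 22.6, 14.6, 16.3 and 26.5 CPM in BM-Treg and at 31.7, 26.3, 27.0 and 35.3 CPM in SP-Treg. BM-Treg replicate 4 (26.5) lay just above SP-Treg replicate 2 (26.3), and the other BM-Treg libraries lay below all spleen libraries. The log2 fold change of -0.61 ± 0.19 (SE, n = 4 and 4) was as large as that of Ezh2 and missed the threshold (edgeR adjusted p = 0.0550). The fit without BM-Treg replicate 4 gave -0.77 (edgeR adjusted p = 0.0201), and BM-Treg replicate 4 against the spleen libraries of its own batch gave -0.18 (edgeR adjusted p = 0.746). Whether these values differ was not tested, and with 1 library the batch, the labelled sex and the spread between libraries cannot be told apart. The log2 ratio of Uhrf1 to Dnmt1 counts, which needs no scaling between libraries, was -2.91, -3.21, -3.00 and -2.69 in BM-Treg and -2.35, -2.48, -2.65 and -2.14 in SP-Treg. The groups did not overlap (difference -0.55, exact two-sided permutation p = 0.0286, the smallest possible, and 0.114 adjusted over 4 ratios). Within batch 3 the difference was -0.29. That of Dnmt1 to Dnmt3a was 0.17 ± 0.23 and 0.00 ± 0.06 (SD, n = 4; difference 0.18, exact two-sided permutation p = 0.200, also after adjustment).

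**Figure D2:**
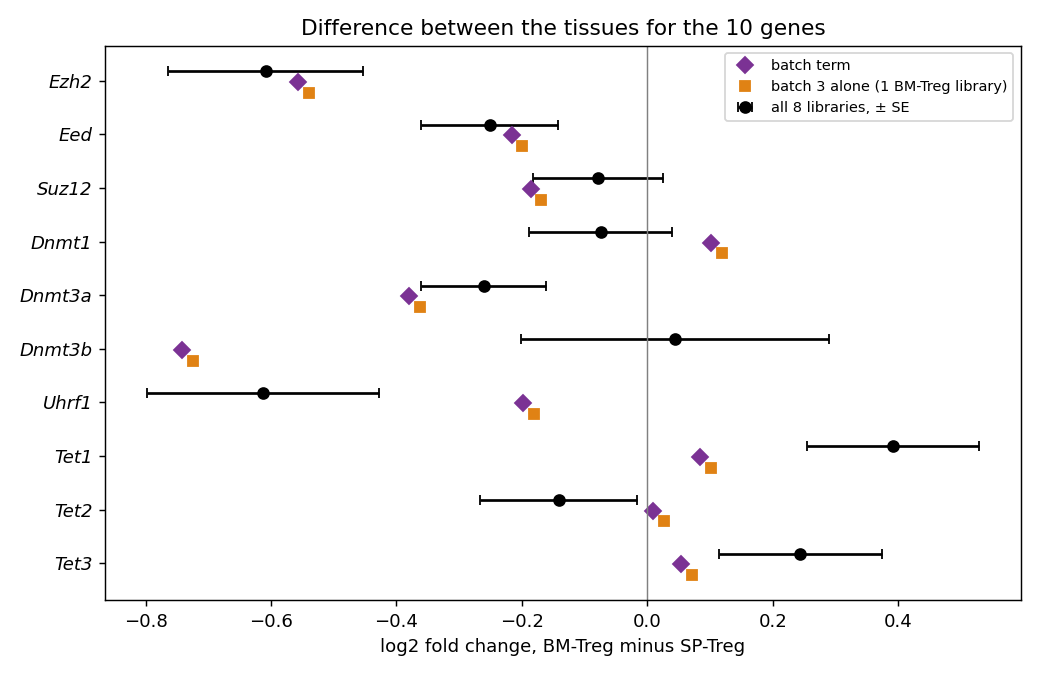
Log2 fold change of the 10 genes, BM-Treg minus SP-Treg, with all 8 libraries (circles, bars are SE), with batch as a term (diamonds) and with batch 3 alone (squares, 1 BM-Treg library). For Ezh2, Eed and Dnmt3a the squares stay close to the circles, for Uhrf1, Tet1 and Tet3 they lie nearer to 0, and for Dnmt1, Dnmt3b and Tet2 they lie on the other side of 0.

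The E2F type motif of Uhrf1 (chr17:56304083-56304332, plus strand) begins at position -185 from the start of its second RefSeq window, and in Dnmt1 (chr9:20952819-20952858, minus strand) and Suz12 (chr11:79992871-79992910, plus strand) a match begins at position -219 from a start. The promoter of Uhrf1 is printed at the same length as that of Ezh2 for comparison, and the other genes by the bases around the match. Hells (chr19:38930912-38930951, plus strand) and Cdca7 (chr2:72476132-72476171, plus strand), whose values follow, are shown beside them, and in Dnmt1 and Cdca7 the capitals are the motif read on the opposite strand.
Uhrf1 promoter: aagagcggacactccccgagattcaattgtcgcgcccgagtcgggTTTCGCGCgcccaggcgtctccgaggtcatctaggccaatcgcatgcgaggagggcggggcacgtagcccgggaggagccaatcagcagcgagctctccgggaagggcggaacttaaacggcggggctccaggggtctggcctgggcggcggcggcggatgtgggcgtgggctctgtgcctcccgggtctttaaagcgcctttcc
Dnmt1 match: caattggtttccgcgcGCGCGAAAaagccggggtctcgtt
Suz12 match: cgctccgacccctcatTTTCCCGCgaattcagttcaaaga
Hells match: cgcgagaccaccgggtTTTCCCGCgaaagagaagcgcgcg
Cdca7 match: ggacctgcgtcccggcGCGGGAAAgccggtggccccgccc

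Of the genes with a match, Ezh2, Hells and Cdca7 were lower in BM-Treg and were called, Uhrf1 was lower and not called, and Dnmt1 and Suz12 differed by less than their SE. Of the 5 Mcm genes searched, all called lower in BM-Treg, Mcm3, Mcm5, Mcm6 and Mcm7 held a match and Mcm2 did not. These genes outside the 10 were searched because they were called lower, so the matches say nothing of how often called genes carry the motif. No match was in the windows of Eed, Dnmt3a, Dnmt3b, Tet1, Tet2 or Tet3, which says only that these letters are absent there.

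Most of Dnmt3a came from a pair of forms. Dnmt3a-218, which encodes the long protein (coding length 2724 bases), took 61.2% ± 7.15 of counts in BM-Treg and 58.4% ± 3.55 in SP-Treg (SD, n = 4; exact two-sided permutation p = 0.543). Dnmt3a-203, which starts inside the gene and encodes the short protein (2067 bases), was at 25.9%, 28.7%, 24.5% and 29.8% in BM-Treg and at 37.1%, 34.4%, 29.4% and 34.2% in SP-Treg. BM-Treg replicate 4 lay just above the lowest spleen library, and the difference in this second form was not tested. Other transcripts have the same coding lengths. Dnmt3a-201 (2724 bases) took 13.0% in BM-Treg replicate 4, 0.87% in BM-Treg replicate 1 and 0% in the other libraries. Dnmt3a-205 (2067 bases) took 1.93% ± 1.74 in BM-Treg and 1.37% ± 1.11 in SP-Treg (SD, n = 4). The shares above are thus those of single transcripts, and shares summed by protein were not tested. Uhrf1-204 took 40.7% ± 17.4 and 62.1% ± 11.5 of Uhrf1 counts (SD, n = 4; exact two-sided permutation p = 0.114), and Dnmt1-201 took 49.5% ± 12.4 and 44.5% ± 10.6 of Dnmt1 counts (SD, n = 4; exact two-sided permutation p = 0.571). Dnmt3b had between 61.4 and 217 counts per library, and Dnmt3b-206 ranged from 0% to 70.1% of them.

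**Figure D3:**
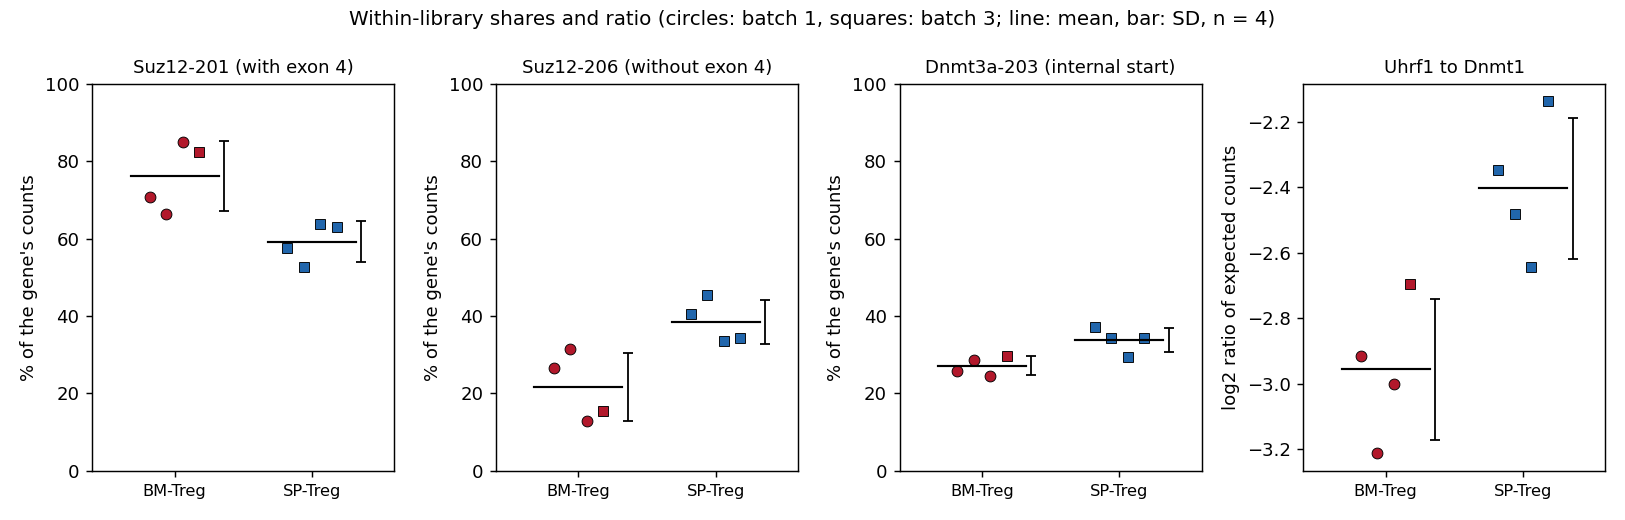
Share of the gene's counts taken by Suz12-201, Suz12-206 and Dnmt3a-203 (percent, axis from 0 to 100) and log2 ratio of Uhrf1 to Dnmt1 counts, in each library. The groups do not overlap for both Suz12 transcripts and for the ratio, and overlap in 1 library for Dnmt3a-203.

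Of the 3 TET enzymes, 2 were higher in BM-Treg in sign, and 0 were called by edgeR, DESeq2 or limma-voom (1, Tet1, had an unadjusted p under 0.05 in edgeR). Tet1 was at 53.4, 50.2, 45.5 and 37.7 CPM in BM-Treg and at 31.3, 35.0, 41.8 and 32.8 CPM in SP-Treg. BM-Treg replicates 1 to 3 were above all spleen libraries and replicate 4 lay among them. The log2 fold change was 0.39 ± 0.14 (SE, n = 4 and 4; edgeR adjusted p = 0.0918). It passed the test in the fit without BM-Treg replicate 4 (0.48, edgeR adjusted p = 0.0430) and was 0.08 with the batch term (edgeR adjusted p = 0.858). Tet2 was at 156, 127, 114 and 152 CPM in BM-Treg and at 132, 141, 173 and 151 CPM in SP-Treg, with a log2 fold change of -0.14 ± 0.13 (SE, n = 4 and 4; edgeR adjusted p = 0.544) that turned to 0.01 with the batch term (edgeR adjusted p = 0.990). Tet3 was at 301, 234, 205 and 207 CPM in BM-Treg and at 181, 192, 219 and 199 CPM in SP-Treg, and its value of 0.24 ± 0.13 (SE, n = 4 and 4; edgeR adjusted p = 0.279) was 0.12 without BM-Treg replicate 1, the highest library. In FPKM the groups did not overlap, at 36.7 to 51.0 in BM-Treg and 28.2 to 35.7 in SP-Treg, and the difference on log2(FPKM + 1) was 0.43 and was not called (limma adjusted p = 0.0986). The log2 ratio of Tet2 to Tet3 was -0.95, -0.88, -0.85 and -0.45 in BM-Treg and -0.45, -0.44, -0.34 and -0.40 in SP-Treg (difference -0.37, exact two-sided permutation p = 0.0571, 0.114 adjusted over 4 ratios). The batch 1 libraries were below all spleen libraries, while BM-Treg replicate 4 fell within their range, so that tissue and batch cannot be told apart for this ratio.

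Per transcript length, Ezh2 had the highest mean over all transcripts and Suz12 over coding transcripts, and Dnmt3b had the lowest in both orders. Over all of a gene's transcripts the mean FPKM of the 8 libraries was 57.1 for Ezh2, 41.8 for Suz12, 36.2 for Tet3, 30.2 for Dnmt3a, 29.5 for Dnmt1, 24.2 for Eed, 15.7 for Tet2, 8.88 for Tet1, 8.61 for Uhrf1 and 4.82 for Dnmt3b. That order depends on short transcripts without a full coding sequence, which count heavily per length: Ezh2-209 made 45.0% of Ezh2 FPKM in BM-Treg and 47.4% in SP-Treg, Tet3-201 made 60.5% and 53.1% of Tet3 FPKM, and Tet1-202 made 66.6% and 60.8% of Tet1 FPKM. With transcripts annotated as protein coding only, a choice made after the data were seen, the order of the mean FPKM was Suz12 (35.4), Dnmt1 (29.5), Dnmt3a (27.3), Ezh2 (20.4), Eed (17.9), Tet2 (15.7), Tet3 (15.5), Uhrf1 (7.27), Tet1 (3.22) and Dnmt3b (1.63). Neighbours in this order overlapped over the 8 libraries except at 1 step, between Tet3 (13.0 to 22.9 FPKM) and Uhrf1 (4.30 to 9.76 FPKM). Coding Ezh2 had 17.6 ± 2.28 FPKM in BM-Treg against 23.3 ± 4.30 FPKM in the spleen (SD, n = 4).

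Among the partners of these enzymes, some genes had larger measured differences than any of the 10. Of 8 PRC2 partners tested (Epop, listed under its older symbol, did not pass the filter), 1 was called: Phf1, which guides PRC2 to chromatin, rose by 0.79 ± 0.13 on the log2 scale (SE, n = 4 and 4; edgeR adjusted p = 0.00218). It was at 74.0, 64.6, 78.0 and 71.2 CPM in BM-Treg and at 40.9, 51.6, 38.7 and 33.5 CPM in SP-Treg, with no overlap and with BM-Treg replicate 4 as high as the others. Aebp2, the most abundant by CPM, was at 165 ± 14.0 and 197 ± 41.0 CPM (SD, n = 4; log2 fold change -0.27, edgeR adjusted p = 0.226). The list's median log2 fold change was -0.01, and that of all genes tested was also -0.01.

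PRC1 is a group of complexes that ubiquitinate histone H2A, and only some of its forms read the PRC2 mark. Of 20 subunits of PRC1, 2 were called higher and 1 lower in BM-Treg, with a median log2 fold change of 0.05. Cbx7, a reader of methylated histone H3, was at 282, 275, 282 and 252 CPM in BM-Treg and at 159, 174, 149 and 135 CPM in SP-Treg. No spleen library came near the lowest BM-Treg library, and the log2 fold change was 0.80 ± 0.10 (SE, n = 4 and 4; edgeR adjusted p = 0.000505). Of the genes called in these lists it alone stayed called with the batch term (0.69, edgeR adjusted p = 0.0376). Pcgf1 (0.79, edgeR adjusted p = 0.0143) rose as well, while Kdm2b, which brings the PCGF1 form of PRC1 to unmethylated CpG islands, fell by 0.39 on the log2 scale (edgeR adjusted p = 0.0337), a call lost when 6 of the 8 libraries were left out 1 at a time (edgeR adjusted p of at most 0.110). On log2(FPKM + 1) Kdm2b was at -0.19 (limma adjusted p = 0.553). The most abundant subunit, Phc3, was at 535 ± 55.5 and 684 ± 70.9 CPM with no overlap (SD, n = 4; log2 fold change -0.37, edgeR adjusted p = 0.0580).

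Of 5 genes for removal of Polycomb marks, 1 was called. Kdm6a, a demethylase of lysine 27 of histone H3, was at 149.9, 163, 188 and 113 CPM in BM-Treg and at 102, 93.9, 108 and 94.7 CPM in SP-Treg (log2 fold change 0.61 ± 0.13; SE, n = 4 and 4; edgeR adjusted p = 0.0100). It lies on the X chromosome and escapes inactivation. The libraries labelled female were the high ones, and BM-Treg replicate 4 differed from the spleen libraries by 0.18 (edgeR adjusted p = 0.644 in batch 3 alone). Summed with its Y-linked paralogue Uty, it was at 174, 174, 188 and 146 CPM in BM-Treg and at 142, 138, 154 and 135 CPM in SP-Treg, where BM-Treg replicate 4 lay inside the spleen range. Asxl2, the most abundant of the list, was at 418 ± 38.6 and 337 ± 27.8 CPM (SD, n = 4; log2 fold change 0.30, edgeR adjusted p = 0.0977).

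**Figure D4:**
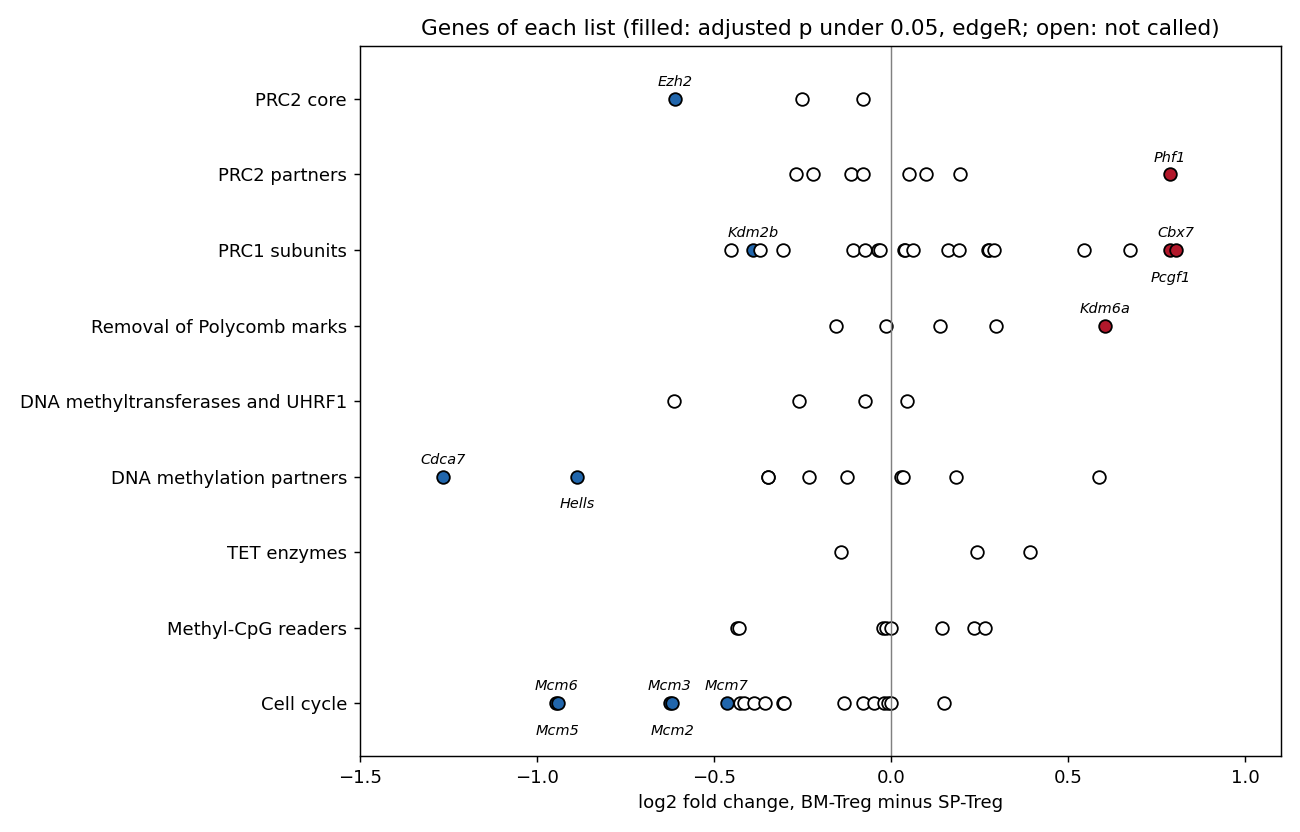
Log2 fold change, BM-Treg minus SP-Treg, of the tested genes of the 9 lists, a point for each gene; filled points passed the test (red higher, blue lower in BM-Treg) and are named. Phf1, Cbx7, Pcgf1 and Kdm6a are on the right, Ezh2, Kdm2b, Hells, Cdca7 and the Mcm genes on the left.

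Of 12 partners of DNA methylation, 10 were tested (Dnmt3l and Cxxc4 were listed at 0 in every library) and 2 were called, both lower in BM-Treg. Hells, a chromatin remodeller that opens nucleosomes to DNA methyltransferases, was at 13.6, 13.3, 13.8 and 13.0 CPM in BM-Treg and at 22.8, 19.8, 27.0 and 28.4 CPM in SP-Treg. Cdca7, which forms a complex with HELLS and activates it, was at 5.79, 5.82, 5.89 and 5.45 CPM in BM-Treg and at 13.0, 10.03, 15.0 and 16.5 CPM in SP-Treg. For both, the CPM of the BM-Treg libraries nearly coincided across the batches and lay below every spleen library. In FPKM this was so only in part. Hells was at 8.96, 9.98, 8.72 and 4.52 FPKM in BM-Treg replicates 1 to 4, still below every spleen library. For Cdca7 the groups overlapped, with BM-Treg replicate 2 (4.67 FPKM) above SP-Treg replicate 2 (4.53 FPKM). The log2 fold changes were -0.89 ± 0.15 for Hells (SE, n = 4 and 4; edgeR adjusted p = 0.00218) and -1.27 ± 0.19 for Cdca7 (SE, n = 4 and 4; edgeR adjusted p = 0.00123). With batch 3 alone they were -0.91 and -1.32, and with the batch term they missed the threshold (edgeR adjusted p = 0.0712 for Hells and 0.0553 for Cdca7), as they did on log2(FPKM + 1), where Hells was at -0.87 (limma adjusted p = 0.0758) and Cdca7 at -0.49 (limma adjusted p = 0.132). Ogt, the most abundant of the list and a partner of TET proteins, was at 507 ± 54.2 and 490 ± 25.7 CPM (SD, n = 4; log2 fold change 0.03, edgeR adjusted p = 0.888). Of 8 readers of methylated CpG, 0 were called by edgeR, DESeq2 or limma-voom, and 4 had an unadjusted p under 0.05 in edgeR. The most abundant, Zbtb38, was at 229 ± 23.2 and 230 ± 33.8 CPM (SD, n = 4; log2 fold change -0.02).

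Since Dnmt1, Uhrf1, Hells and Ezh2 are transcribed most in dividing cells, 18 cell cycle genes were set beside them. Their CPM summed to 2097, 1575, 1348 and 2476 in BM-Treg and to 2067, 1885, 2301 and 2256 in SP-Treg, so that BM-Treg held both the lowest and the highest library. Of the 18, 5 were called, all lower in BM-Treg and all subunits of the MCM helicase of DNA replication: Mcm6 (-0.94, edgeR adjusted p = 0.000909), Mcm5 (-0.94, edgeR adjusted p = 0.00463), Mcm3 (-0.62, edgeR adjusted p = 0.00801), Mcm2 (-0.62, edgeR adjusted p = 0.00283) and Mcm7 (-0.46, edgeR adjusted p = 0.0286). Mcm4, a further subunit in the list, was not called (-0.30, edgeR adjusted p = 0.117). Over all genes tested 5.02% were called lower. The call of Mcm7 was lost on leaving out any of 6 of the 8 libraries (edgeR adjusted p of at most 0.105), and with the batch term all 5 missed the threshold (edgeR adjusted p between 0.0706 and 0.625). In sign 17 of the 18 were lower and 1 higher in BM-Treg, with a median of -0.33, and 51.4% of all genes tested were lower. The sums weigh genes by abundance, and the most abundant one made a large part of each. Mki67, a marker of cycling cells and the most abundant of the list, was at 1196, 804, 601 and 1411 CPM in BM-Treg and at 933, 902, 1145 and 1041 CPM in SP-Treg (log2 fold change -0.02, edgeR adjusted p = 0.974). Among the BM-Treg libraries, Dnmt1 and Tet2 were high in the 2 libraries with the higher cell cycle sums, replicates 1 and 4, and low in replicates 2 and 3, and Uhrf1 followed the same split. The highest BM-Treg values of Ezh2 were in replicates 1 and 4 as well (69.3 and 63.0 CPM), and lay below all 4 spleen libraries. Replicate 4 had the highest sum of the 8, with Mki67 at 1411 CPM. The 5 Mcm genes called were also below all 4 spleen libraries in every BM-Treg library, replicate 4 included. The groups overlapped for the other 13 cell cycle genes, and 7.67% of all genes tested lay wholly below in BM-Treg. The part of cell division in these differences was not tested.

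**Figure D5:**
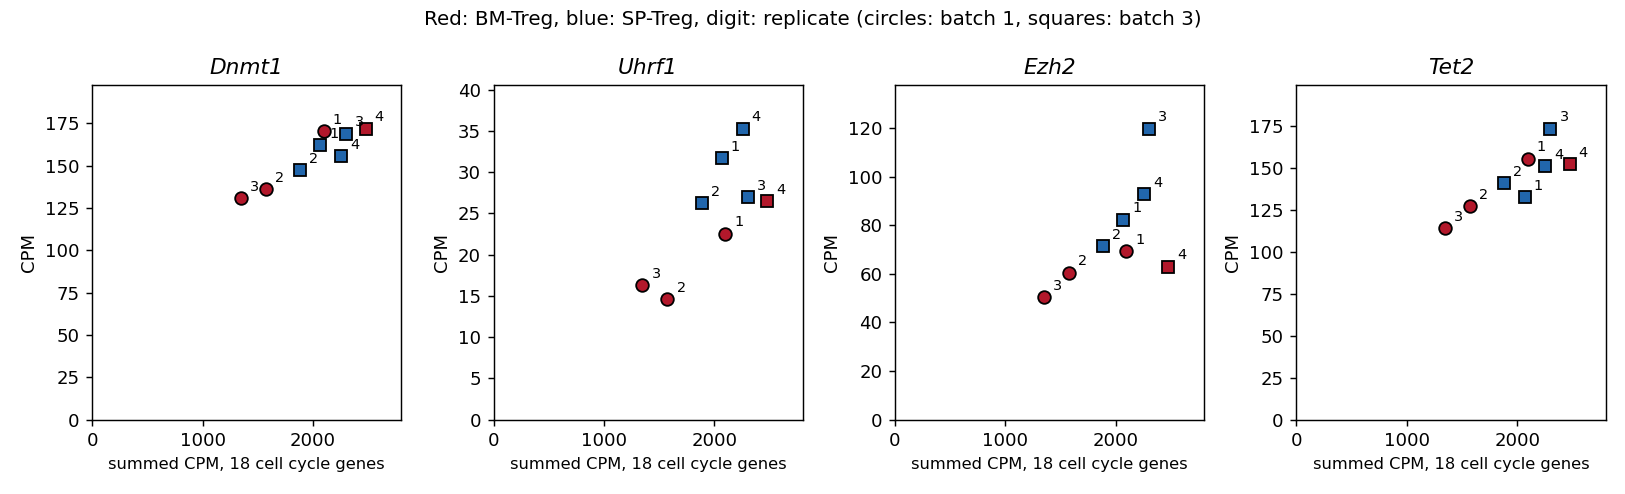
CPM of Dnmt1, Uhrf1, Ezh2 and Tet2 against the summed CPM of 18 cell cycle genes, a point for each library, with both axes from 0. BM-Treg replicate 4 has the highest sum (2476), of which Mki67 is 1411. Its Ezh2 level is below all 4 SP-Treg libraries, and its Dnmt1 level (172) is the highest of the 8.

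The genes most like a member over the 8 libraries were found by the root mean square difference of log2 CPM, with each gene centred on its own mean. For Ezh2 they were Rsu1 (0.126), Tmtc4 (0.132) and AC148089.1 (0.132). For Uhrf1 they were Cdca5 (0.144), Gm10273 (0.147) and Rrm1 (0.150). For Dnmt1 they were Rbm28 (0.058), Incenp (0.060) and Plk4 (0.067). Among the 10 genes themselves, Tet2 was the closest to Dnmt1 (0.096), Dnmt3a the closest to Ezh2 (0.25), and Ezh2 the closest to Uhrf1 (0.304).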

How the data were processed

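RNAseq of 8 libraries of sorted Treg was used, all 8 libraries entering each comparison. Total RNA was amplified by the single primer isothermal method (NuGEN) and read from a single end (80 nt). The authors deposited expected counts per gene and per transcript, not normalized between libraries, and FPKM values of both, in which length and depth are divided out. The submitters' processing notes name cutadapt 1.9, STAR 2.5.2a, RSEM 1.2.30 and the build GRCm38, without saying what each was used for. Columns were matched to samples by name, with 0 left unmatched. Gene coordinates are those of the deposited tables (GRCm38), transcript structures those of GENCODE M21, and promoters those of RefSeq (GRCm38.p6).

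Expected counts were rounded to whole numbers, filtered by edgeR's default on the groups (13397 of 38215 genes kept), scaled by TMM and compared by edgeR's robust quasi-likelihood test without covariate, with Benjamini-Hochberg adjustment over all genes tested and a threshold of 0.05. The study's methods state no test for the RNAseq. CPM values use TMM over all genes, and log2 CPM a prior count of 2. Ratios used a pseudocount of 0.5 counts. Transcript shares were tested for genes with more than 1 transcript and at least 50 counts in every library. Versions were edgeR 4.0.16, DESeq2 1.42.0 and limma 3.58.1 under R 4.3.3. On simulated data the edgeR test called 15% of 100 genes changed 1.5-fold and 56% of 100 genes changed 2-fold. A gene that was not called may therefore still differ. The simulation changed only these genes, whereas 1172 genes were called in the data. The adjustment depends on how many genes change, so the rates may not hold for the data. No pair of libraries of a group was a duplicate (chi-square per degree of freedom of at least 14.6). Amplified reads carry no molecular identifiers, so the spread between libraries gives the errors.

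The 10 genes and the lists were chosen with earlier results of these data known. Named genes are the 10, each called gene of the other lists (at most 6 per list) with the list's most abundant gene, and the 3 genes most like Ezh2, Uhrf1 and Dnmt1. Of these, 1 is not reported here, and it was left out of its list's count and median. Alternatives were limma-trend on log2(FPKM + 1) or log2(FPKM + 0.1) for genes with a mean FPKM of at least 0.5, limma-voom, DESeq2's size factors and test, no filter beyond 1 count, a minimum of 10 counts per library, batch as a term, batch 3 on its own, a replicate block, no robust estimation and each library left out. Chosen after seeing the data were SP-Treg replicate 1 as the only spleen library, no genes of the sex chromosomes, and FPKM of protein-coding transcripts only.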

Additional observations from a re-analysis of the deposited data

Results flagged for a closer look

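Dixon's test for a stray library was applied to 72 groups of 4 libraries, and it marked 2, where chance marks about 1 in 20. For Dnmt3a, SP-Treg replicate 2 was the lowest spleen library at 140 CPM, with the other 3 between 164 and 167 CPM (gap over range 0.899). This library also had the highest B cell sum (137 CPM), whose part was not tested. For the leading transcript of Dnmt3b, Dnmt3b-206, SP-Treg replicate 3 had the highest share at 23.2% of the gene's counts, with the other spleen libraries between 0% and 3.7% (gap over range 0.841). Dnmt3b had 109 counts in that library.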

How the results depend on the processing

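The count of called genes among the 10 was between 0 and 2 in these alternatives, and which genes were called changed with them. DESeq2's test, limma-voom and no filter beyond 1 count called 2, Ezh2 and Uhrf1, both lower. 0 were called on log2(FPKM + 1) and log2(FPKM + 0.1), with the batch term, with batch 3 alone and with SP-Treg replicate 1 as the only spleen library, where the spread comes from BM-Treg alone. Leaving out each library gave 0 to 2 called genes, 0 to 1 of them higher and 0 to 1 lower, and Tet1 was the one higher (without BM-Treg replicate 4).

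Over all genes, the 1172 called genes (499 higher, 673 lower) became 1707 by DESeq2 (786 higher), 546 on log2(FPKM + 1) (202 lower, 63.0% higher against 42.6%), 572 on log2(FPKM + 0.1) (224 lower, 60.8% higher), 258 with the batch term (111 higher, 147 lower), 98 with batch 3 alone (36 higher, 62 lower) and 729 with SP-Treg replicate 1 alone (371 lower). Leaving out a library gave 690 to 1048 (297 to 425 higher, 393 to 639 lower). With at least 10 counts in every library, 51.3% of 1231 calls were higher.

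Dnmt3b turned to -0.0227 on log2(FPKM + 1), -0.0212 on log2(FPKM + 0.1), -0.74 with the batch term, -0.72 with batch 3 alone and between -0.0443 and 0.22 without 1 library. Dnmt1 turned to 0.10 with the batch term, 0.12 with batch 3 alone and between -0.14 and 0.00096 without 1 library. Tet2 turned to 0.0085 with the batch term, 0.026 with batch 3 alone and 0.084 with SP-Treg replicate 1 alone. The leading transcript share of Dnmt1 lay between -0.91 and 8.77 percentage points without 1 library, and that of Tet1 between -6.94 and 14.2. The cause was not tested. Eed, Suz12, Dnmt3a, Uhrf1, Tet1, Tet3 and Ezh2 kept their direction in all 21 alternatives.

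The ratio of Uhrf1 to Dnmt1 was -0.47 on FPKM (exact permutation p = 0.0857), and 5 of 8 fits without a library lost p under 0.05. Those of Tet2 to Tet3 (-0.52) and Ezh2 to Ezh1 (-0.82) reached p = 0.0286 on FPKM in the exact permutation test, without adjustment and the smallest possible. Short transcripts count heavily in the FPKM of Tet3 and Ezh2, and their part in these values was not tested. The Suz12 share kept its sign, and leaving out any 1 spleen library gave an exact permutation p of 0.0571. Leaving out a library cannot make groups overlap that were apart with all libraries. For this share and for the ratio of Uhrf1 to Dnmt1, the exact permutation p of such fits was 0.0286 or 0.0571. These are neighbouring steps of the test, so the lost p does not show that the difference rests on 1 library.

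Replicate numbers gave no sign of pairing: correlations of deviations between same-numbered libraries were -0.107, 0.0596, -0.176 and 0.0398. In BM-Treg the deviations also hold the difference between the batches, so this check cannot decide whether libraries share mice. With the replicate number as a block, 948 genes were called, Ezh2 was at -0.59 (edgeR adjusted p = 0.0771) and Uhrf1 at -0.64 (edgeR adjusted p = 0.0200).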
